A study of Mus musculus with 7 samples.

Results

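The genes described here encode Wnt ligands, their Frizzled (Fzd) receptors, the Lrp5 and Lrp6 co-receptors, secreted Wnt inhibitors and Axin2, in skin lesions of bleomycin-treated male mice that lacked or carried OX40L. They were chosen by symbol, as every probe set annotated as Wnt or Fzd followed by a digit, Sfrp1 to Sfrp5, Dkk1 to Dkk4, Lrp5, Lrp6, Wif1 or Axin2. This gave 42 of 23185 named genes, each with 1 probe set. They comprised 19 ligands, 10 receptors, 2 co-receptors, 9 secreted inhibitors, Axin2, and the transcript Fzd10os, which is annotated on the strand opposite Fzd10 and is no receptor. The study had 4 arrays from ox40l-/- mice (knockout, KO) and 3 arrays from ox40l+/+ mice (wild type, WT), all labelled C57BL/6, 9 weeks old and given bleomycin for 3 weeks. OX40L is a costimulatory ligand of the TNF superfamily, its gene is Tnfsf4. Every animal received bleomycin, which induces skin fibrosis, so the response to the drug itself was not measured. Values are log2 expression values from Affymetrix arrays, 1 per gene and array, and differences are KO minus WT on that scale.

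Wnt ligands are secreted, lipid-modified glycoproteins that bind Frizzled receptors. In the beta-catenin branch, a ligand bridges a Frizzled to Lrp5 or Lrp6, beta-catenin escapes the destruction complex, and TCF/LEF factors switch on target genes such as Axin2. Sfrp proteins and Wif1 bind ligands outside the cell, and Dkk1 blocks the Lrp co-receptors. In skin the pathway drives hair follicle formation and cycling, and in the dermis it is known as a profibrotic signal of fibroblasts.

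The arrays were not equally alike. Pairs that included WT replicate 1 or 3 correlated across probe sets at Pearson's r of 0.761 to 0.914, against 0.956 to 0.968 for the other pairs. The SD of all log2 values was 1.72 on WT replicate 1 and 1.22 on WT replicate 3, against 1.38 to 1.48 on the other arrays. Array medians ran from 3.45 to 3.74, so the deposited values were not equally distributed on all arrays. All 15 measured interfollicular epidermis genes averaged above the median of all values (3.596), and so did all 16 skeletal muscle genes. Tnfsf4, the targeted gene, was at 2.95 ± 0.27 (SD, n = 4) in KO and 2.93 ± 0.63 (SD, n = 3) in WT. The place of its probes relative to the deletion is not known here, so this value checks nothing. Actb, the beta-actin gene, was at 6.61, 6.12, 5.71 and 7.01 in KO, against 9.97, 6.90 and 3.03 in WT, so it was highest on WT replicate 1 and lowest on WT replicate 3.

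None of the 42 genes differed between genotypes after adjustment over all genes. Limma gave 0 members an adjusted p under 0.05, against 0.00431% of all genes. Without adjustment, 1 member (Fzd3, lower in KO) had a p under 0.05, which is 2.38% of the members and compares with 1.88% of all genes (1.03% higher in KO and 0.854% lower). In 0 members did every KO array lie on one side of every WT array, against 1.91% of all genes. Of the members, 20 had a higher mean in KO and 22 a lower one, against 51.7% of all genes with a higher mean, and their median difference was -0.01, beside 0.01 over all genes. Standard errors of the members ran from 0.12 to 0.52. The labels do not say that each array is a separate animal, so the p-values cover only the scatter among these arrays, part of which may be technical. The 1 gene past the adjusted threshold was Hbb-b1, a globin of red blood cells, with 9.67, 9.27, 10.3 and 9.88 in KO, against 6.62, 6.54 and 6.34 in WT. The part of blood content in the member values was not tested.

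**Figure D1:**
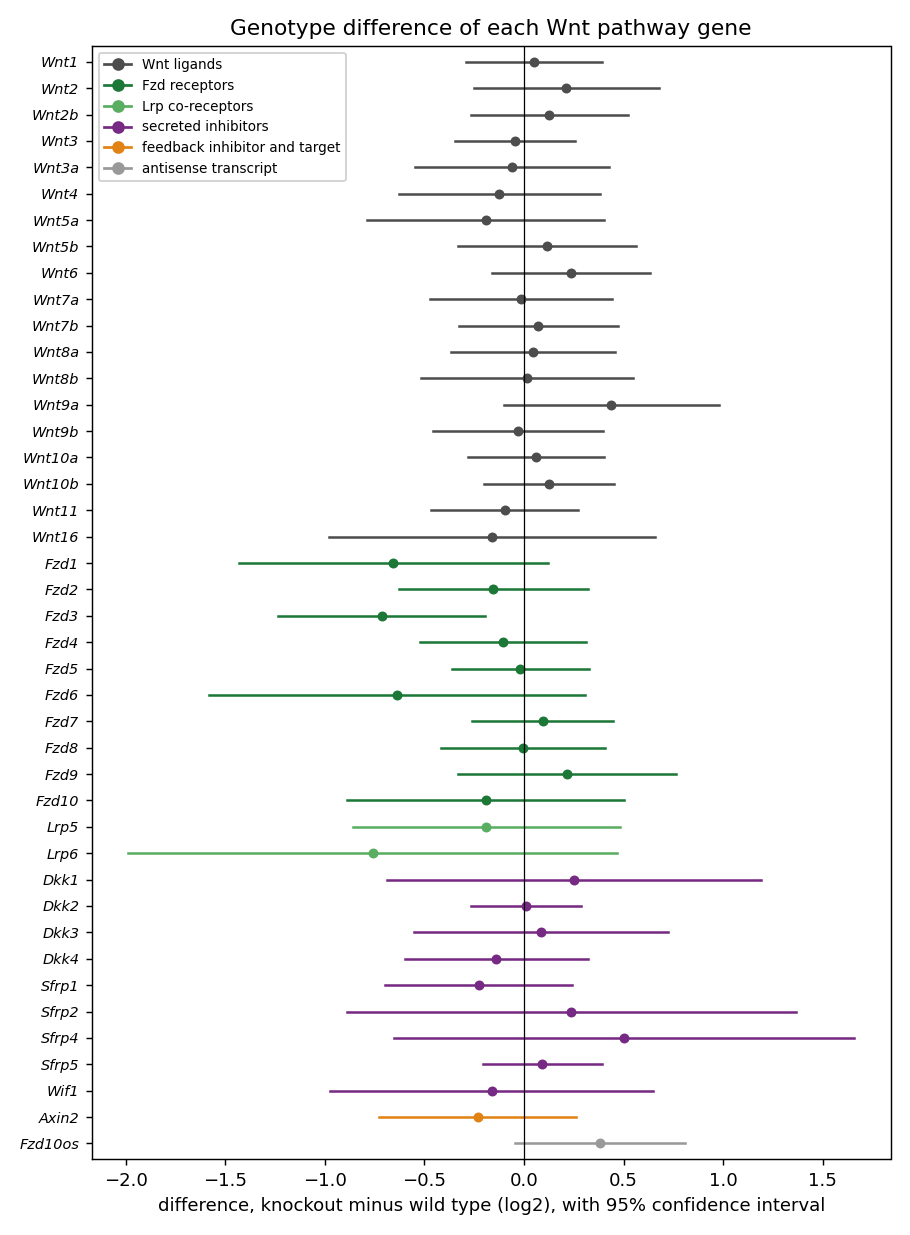
Difference of each of the 42 genes between genotypes (x axis, KO minus WT, log2), with genes down the page by role. Points are limma estimates and lines their 95% confidence intervals. All intervals cross 0 except that of Fzd3, which runs from -1.23 to -0.19.

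Differences past 1.5-fold were found in 4 members (9.52%), all of them receptors or a co-receptor. All were lower in KO (Fzd1, Fzd3, Fzd6 and Lrp6), while 0 members were higher by that much. Over all genes, 2.99% were lower and 2.26% higher by 1.5-fold. Without WT replicate 1 the count of members lower by 1.5-fold was 0, against 2.70% of all genes. Without both WT replicates 1 and 3 it was 1, against 3.89%. This count was chosen after the values were seen.

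Promoter sequence is shown for 3 genes whose values were extreme on WT replicate 1. Fzd1 and Axin2 were highest there and Dkk1 was lowest, and Axin2 and Dkk1 are known target genes of TCF/LEF factors. The sequences are the 250 bases before the annotated start, from RefSeq (GRCm38.p6), and capitals mark the core of the TCF/LEF motif, CTTTG, on either strand. Axin2 lies on the plus strand (chr11:108920099-108920348), Fzd1 on the minus strand (chr5:4758217-4758466) and Dkk1 on the minus strand (chr19:30549497-30549746), and each is written in the direction of its gene.
Axin2: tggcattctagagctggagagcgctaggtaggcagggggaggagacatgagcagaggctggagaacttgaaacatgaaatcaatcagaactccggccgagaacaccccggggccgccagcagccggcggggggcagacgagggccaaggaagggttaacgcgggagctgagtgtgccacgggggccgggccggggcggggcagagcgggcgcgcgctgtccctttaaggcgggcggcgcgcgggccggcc
Fzd1: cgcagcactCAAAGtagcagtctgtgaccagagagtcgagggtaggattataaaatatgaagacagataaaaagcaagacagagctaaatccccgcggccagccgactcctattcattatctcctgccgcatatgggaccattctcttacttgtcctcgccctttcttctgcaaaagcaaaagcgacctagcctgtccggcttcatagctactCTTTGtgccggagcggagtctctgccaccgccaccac
Dkk1: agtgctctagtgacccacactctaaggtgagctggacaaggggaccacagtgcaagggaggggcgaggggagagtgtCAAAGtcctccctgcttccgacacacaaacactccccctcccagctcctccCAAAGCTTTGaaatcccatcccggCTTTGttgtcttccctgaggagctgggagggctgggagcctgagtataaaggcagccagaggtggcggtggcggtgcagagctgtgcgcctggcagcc
The motif occurred 0 times in the Axin2 window, 2 times in that of Fzd1 and 4 times in that of Dkk1. It is short and common, present in 48.6% of 32851 RefSeq promoter windows of this length. Promoters were matched for 26 member genes with 29 windows, of which 13 windows (44.8%) held it. The lookup used rounded gene identifiers, which were wrong for Wnt9a and Fzd10os, so these counts may be off for those genes. A match is only a string of letters, and none of these data measure binding.

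Among the 19 ligands no genotype difference was resolved. The mean was higher in KO for 11 of them and lower for 8, with differences from -0.19 to 0.44 and a median of 0.05. The smallest unadjusted p was 0.0960 in limma, with an adjusted p of 0.9995 for every ligand. In all, 13 of 19 ligands had a mean below the median of all values, against 49.9% of all genes.

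Wnt9a, a ligand studied mainly in joint and skeletal development, had the largest ligand difference. Its log2 values were 3.14, 3.01, 3.40 and 3.01 in KO, against 2.19, 2.90 and 3.01 in WT. Only WT replicate 1 stood clearly below the rest, and KO replicates 2 and 4 equalled WT replicate 3. The difference was 0.44 (SE 0.23) and was 0.18 without WT replicate 1. Wnt6, an epithelial ligand, was at 4.63, 4.10, 4.46 and 4.24 in KO, against 4.14, 4.24 and 3.99 in WT, a difference of 0.24 (SE 0.17). KO replicates 1 and 3 were the highest and the genotypes overlapped. Wnt2, a ligand expressed by fibroblasts, was at 3.82, 3.67, 3.99 and 3.41 in KO, against 3.19, 3.67 and 3.67 in WT, a difference of 0.21 (SE 0.20). WT replicate 1 was the lowest array, and the difference without it was 0.05. The Wnt2 value shared by KO replicate 2 and WT replicates 2 and 3 occurred 710 times in the whole table. Those on KO replicate 1 and WT replicate 1 occurred 370 and 261 times.

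Wnt5a, the main ligand of beta-catenin-independent signalling, did not separate the genotypes. It was at 2.69, 2.97, 2.65 and 2.62 in KO, against 3.50, 2.46 and 2.81 in WT. WT replicate 1 was the highest array and WT replicate 2 the lowest, so the wild type arrays enclosed all knockout arrays. The difference of -0.19 (SE 0.25) became 0.10 without WT replicate 1. Wnt16, a ligand with roles in bone and keratinocytes, showed the same enclosure, with 4.64, 4.64, 4.46 and 4.74 in KO, against 4.05, 4.64 and 5.65 in WT. Its difference was -0.16 (SE 0.35), and 0.28 without WT replicate 3.

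Ligands of follicle and epidermis overlapped between genotypes. Wnt10a, which is mutated in human ectodermal dysplasias, lay between 5.07 and 5.39 in KO and between 5.10 and 5.35 in WT. Wnt10b, a ligand that promotes hair growth, lay between 2.77 and 2.83 in KO and between 2.46 and 2.83 in WT. Wnt4, made in epidermis, spanned 3.77 to 4.52 in KO and 3.93 to 4.33 in WT. Wnt3, a follicle ligand in mouse, spanned 2.08 to 2.36 in KO and 2.27 to 2.30 in WT, all far below the median of all values. The genotypes overlapped in these genes and in the remaining 10 ligands (Wnt1, Wnt2b, Wnt3a, Wnt5b, Wnt7a, Wnt7b, Wnt8a, Wnt8b, Wnt9b and Wnt11). WT replicate 1 was the lowest array for 9 of 19 ligands (47.4%), against 39.1% of all genes.

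Receptors and co-receptors leaned toward lower means in KO, in 10 of 12 genes, against 48.2% of all genes, with a median difference of -0.17. Without WT replicate 1 the count was 7 of 12, against 53.7% of all genes, with a median of -0.06. WT replicate 1 was the highest of the 7 arrays for 7 of these 12 genes (58.3%), against 25.3% of all genes. As a comparison of single arrays this is a description.

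Fzd3, a receptor known above all for planar cell polarity and axon guidance, had the smallest p of all members. Its log2 values were 2.91, 2.97, 3.33 and 2.97 in KO, against 4.16, 3.80 and 3.33 in WT. KO replicates 1, 2 and 4 lay below all wild type arrays, while KO replicate 3 and WT replicate 3 had exactly the same value, so the genotypes touched. The mean was 3.05 ± 0.19 (SD, n = 4) in KO and 3.76 ± 0.42 (SD, n = 3) in WT, a 1.64-fold lower level in KO. The difference of -0.71 (SE 0.22, 95% confidence interval -1.23 to -0.19) had a limma unadjusted p of 0.0138 and an adjusted p of 0.9995. Leaving out 1 array at a time gave differences of -0.93 to -0.52, with limma unadjusted p from 0.00188 to 0.0421. The smallest of these p-values, without WT replicate 3, had an adjusted p of 0.363. In that setting 12% of all genes had an unadjusted p under 0.05. The difference was -0.80 among arrays whose sample code lacked a suffix (2 KO and 2 WT) and -0.65 among those with one (2 KO and 1 WT). That 1 WT array was replicate 2, whose Fzd3 value occurred 501 times in the whole table. Between the KO and the WT array that share the code number 18 the difference was 0.00.

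Fzd6, the polarity receptor of hair follicle orientation in mouse, was at 4.08, 4.14, 4.14 and 3.64 in KO, against 5.69, 4.19 and 4.02 in WT. WT replicate 1 stood far above the rest, WT replicate 2 lay just above the knockout range and WT replicate 3 within it. The difference was -0.64 (SE 0.40) with all arrays and -0.11 without WT replicate 1. Fzd1, which can signal through beta-catenin, was at 5.05, 5.05, 4.78 and 4.87 in KO, against 6.44, 4.99 and 5.34 in WT. WT replicates 1 and 3 were above all knockout arrays and WT replicate 2 was among them. Its difference of -0.66 (SE 0.33, limma unadjusted p = 0.0868) shrank to -0.23 without WT replicate 1 and reached -0.96 without WT replicate 2.

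Lrp6, the co-receptor most required for beta-catenin signalling in the embryo, had the largest difference of all members by size. It was at 5.47, 4.97, 4.61 and 5.81 in KO, against 7.19, 5.68 and 5.05 in WT. WT replicate 1 stood above every other array by over 1 log2 unit, and the other wild type arrays lay inside the knockout range. The difference was -0.76 (SE 0.52, 95% confidence interval -1.99 to 0.47), which is 1.69-fold. Without WT replicate 1 it was -0.15, and without WT replicate 3 it was -1.22. Lrp5, its close relative, was at 4.30, 4.16, 4.30 and 4.30 in KO, against 5.16, 3.89 and 4.30 in WT. KO replicates 1, 3 and 4 and WT replicate 3 shared 1 value, and the other wild type arrays lay on either side of it. The difference was -0.19 (SE 0.29), and it was 0.17 without WT replicate 1.

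**Figure D2:**
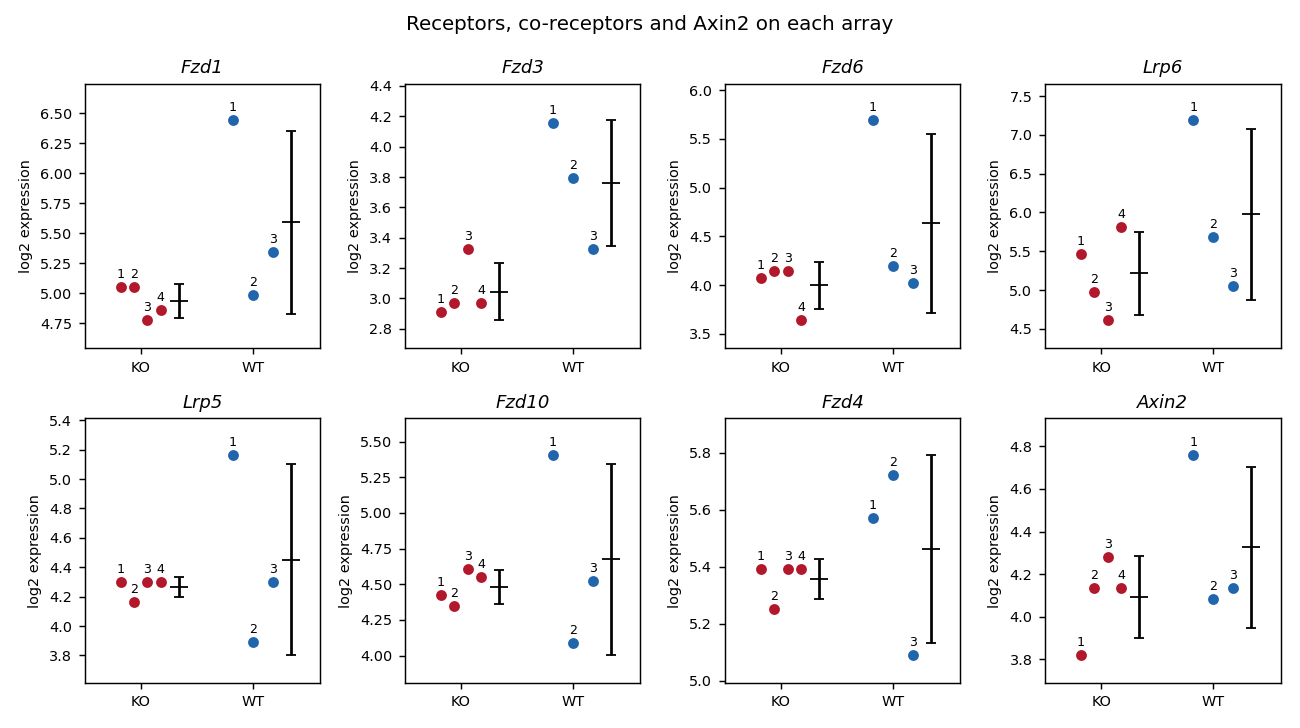
Log2 expression (y axis, scaled per gene) of 8 genes on each KO array (left, red) and WT array (right, blue), numbered by replicate. Black bars are the mean and SD of each genotype. WT replicate 1 is the highest array in every panel except Fzd4, and in Fzd3 KO replicate 3 and WT replicate 3 sit at the same level of 3.33.

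The other Frizzled genes gave smaller differences. Fzd10, a receptor linked to beta-catenin signalling, was at 4.43, 4.35, 4.61 and 4.55 in KO, against 5.41, 4.09 and 4.53 in WT. Its difference was -0.19 (SE 0.30), and 0.17 without WT replicate 1. Fzd9 was at 4.27, 4.20, 4.27 and 4.87 in KO, against 3.82, 4.26 and 4.47 in WT, a difference of 0.22 (SE 0.23). KO replicate 4 alone exceeded all wild type arrays. Fzd4, which also serves as the receptor of Norrin in blood vessels, was at 5.39, 5.25, 5.39 and 5.39 in KO, against 5.57, 5.72 and 5.09 in WT. Its difference of -0.10 (SE 0.18) ran from -0.29 without WT replicate 3 to 0.03 without WT replicate 2. Fzd2, Fzd5, Fzd7 and Fzd8 overlapped between genotypes as well. Fzd10os was at 4.53, 4.14, 4.14 and 4.14 in KO, against 4.14, 3.80 and 3.63 in WT, and differed by 0.38 (SE 0.18, limma unadjusted p = 0.0719, adjusted p = 0.9995). No knockout array was below a wild type array for it, with a shared value on KO replicates 2, 3 and 4 and WT replicate 1. That shared value occurred 265 times in the whole table. The Fzd10os value on KO replicate 1 occurred 117 times and that on WT replicate 2 occurred 501 times, so this difference rests largely on repeated numbers.

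No genotype difference was resolved among the secreted inhibitors, where the smallest limma unadjusted p was 0.291. The mean was higher in KO for 6 of the 9 and lower for 3, with differences from -0.23 to 0.50 and a median of 0.09. Sfrp2 and Sfrp4, secreted Frizzled-related proteins made by dermal fibroblasts, were both highest on KO replicate 3. Sfrp2 was at 3.55, 3.58, 5.51 and 3.71 in KO, against 3.82, 3.93 and 3.80 in WT. Without KO replicate 3 the knockout arrays were all below the wild type arrays, and the difference was -0.24, against 0.24 (SE 0.48) with all arrays. Sfrp4 was at 4.57, 5.07, 6.51 and 5.69 in KO, against 4.69, 5.67 and 4.51 in WT. The difference was 0.50 (SE 0.49, 95% confidence interval -0.65 to 1.66), and it was 0.15 without KO replicate 3. The fibroblast marker score (the mean deviation of 11 marker genes from their mean over the 7 arrays) of KO replicate 3 was also the highest of the knockout arrays at 0.29, against -0.27 to 0.02 on the other knockout arrays. On the wild type arrays that score was 0.58, 0.28 and -0.90. The part of fibroblast content in these values was not tested. In whole skin, fewer cells of a type and less RNA per cell cannot be told apart.

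Sfrp1, a follicle-associated inhibitor, was at 2.93, 2.82, 2.95 and 3.04 in KO, against 3.62, 2.91 and 2.95 in WT. WT replicate 1 was the only array outside a narrow band, and the difference of -0.23 (SE 0.20) was 0.0018 without it. Dkk1, the Lrp5/6 antagonist, was at 3.82, 3.84, 4.11 and 3.82 in KO, against 2.85, 3.40 and 4.69 in WT. The wild type arrays held both the lowest and the highest value, and the difference was 0.25 (SE 0.40). It was 0.77 without WT replicate 3 (limma unadjusted p = 0.00637, adjusted p = 0.372) and -0.15 without WT replicate 1. Without WT replicate 3, 12% of all genes had an unadjusted p under 0.05. Wif1, which binds Wnt ligands directly, was at 4.49, 4.40, 4.29 and 3.88 in KO, against 4.54, 3.63 and 5.12 in WT, a difference of -0.16 (SE 0.35) that became 0.18 without WT replicate 3. Again the wild type arrays enclosed the knockout range.

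**Figure D3:**
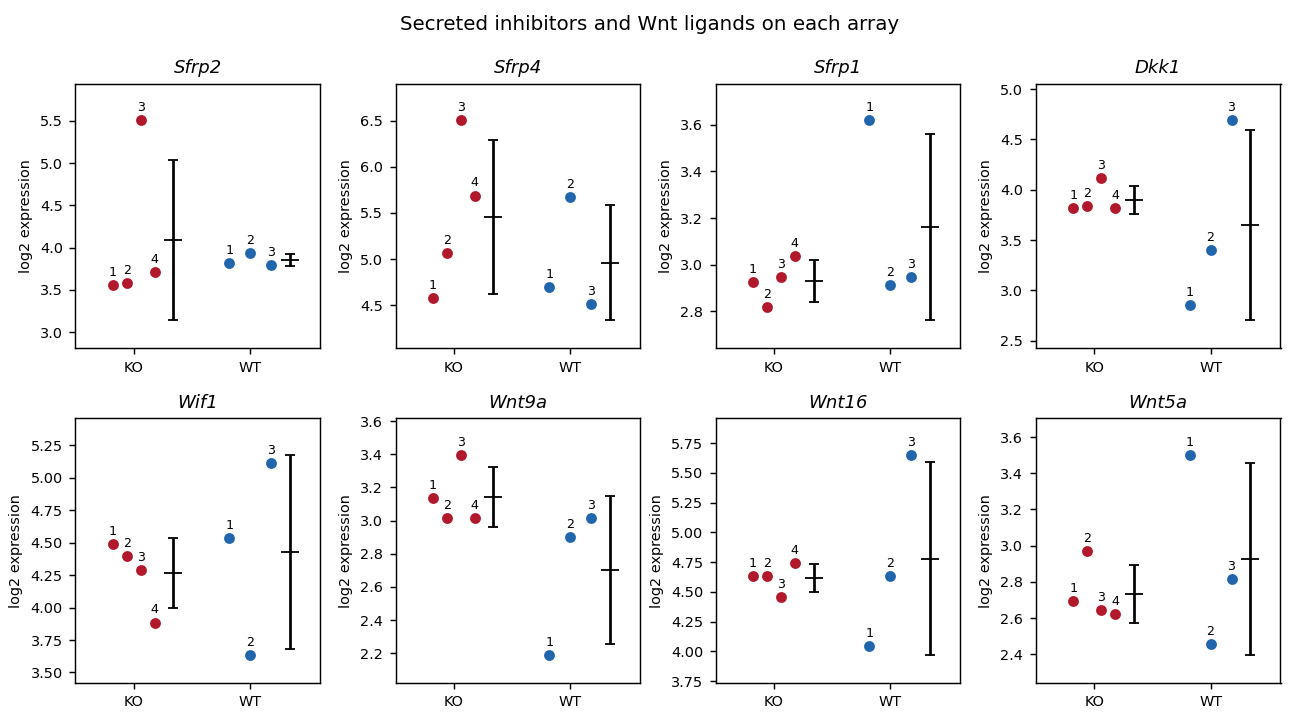
Log2 expression (y axis, scaled per gene) of 5 secreted inhibitors and 3 ligands on each KO array (left, red) and WT array (right, blue), numbered by replicate, with the mean and SD of each genotype in black. KO replicate 3 is highest for Sfrp2 (5.51) and Sfrp4 (6.51), and for Dkk1, Wif1, Wnt16 and Wnt5a the wild type arrays lie on both sides of the knockout arrays.

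The other inhibitors were close between genotypes. Dkk2, a modulator of Lrp signalling, lay between 4.29 and 4.30 in KO and between 4.21 and 4.37 in WT, the smallest standard error of all members (0.12). Dkk3, a Dickkopf relative that is not a typical Wnt antagonist, lay between 4.03 and 4.30 in KO and between 3.46 and 4.61 in WT. Dkk4, an ectodermal target of the pathway, and Sfrp5, an adipose-tissue inhibitor, lay between 2.37 and 2.46 and between 3.58 and 3.66 in KO, against 2.23 to 3.00 and 3.37 to 3.61 in WT. WT replicate 3 was the highest array for 5 of the 9 inhibitors, against 30.1% of all genes.

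Axin2, the scaffold that feeds back on beta-catenin and serves as a general readout of the pathway, had a small difference beside the scatter of its arrays. It was at 3.82, 4.14, 4.28 and 4.14 in KO, against 4.76, 4.08 and 4.14 in WT. The value shared by KO replicates 2 and 4 and WT replicate 3 occurred 265 times in the whole table. WT replicate 1 was the highest and the other wild type arrays lay inside the knockout range. The mean was 4.09 ± 0.19 (SD, n = 4) in KO and 4.33 ± 0.38 (SD, n = 3) in WT. The difference of -0.23 (SE 0.21, 95% confidence interval -0.73 to 0.26; limma adjusted p = 0.9995) was -0.02 without WT replicate 1 and 0.01 without WT replicates 1 and 3.

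**Figure D4:**
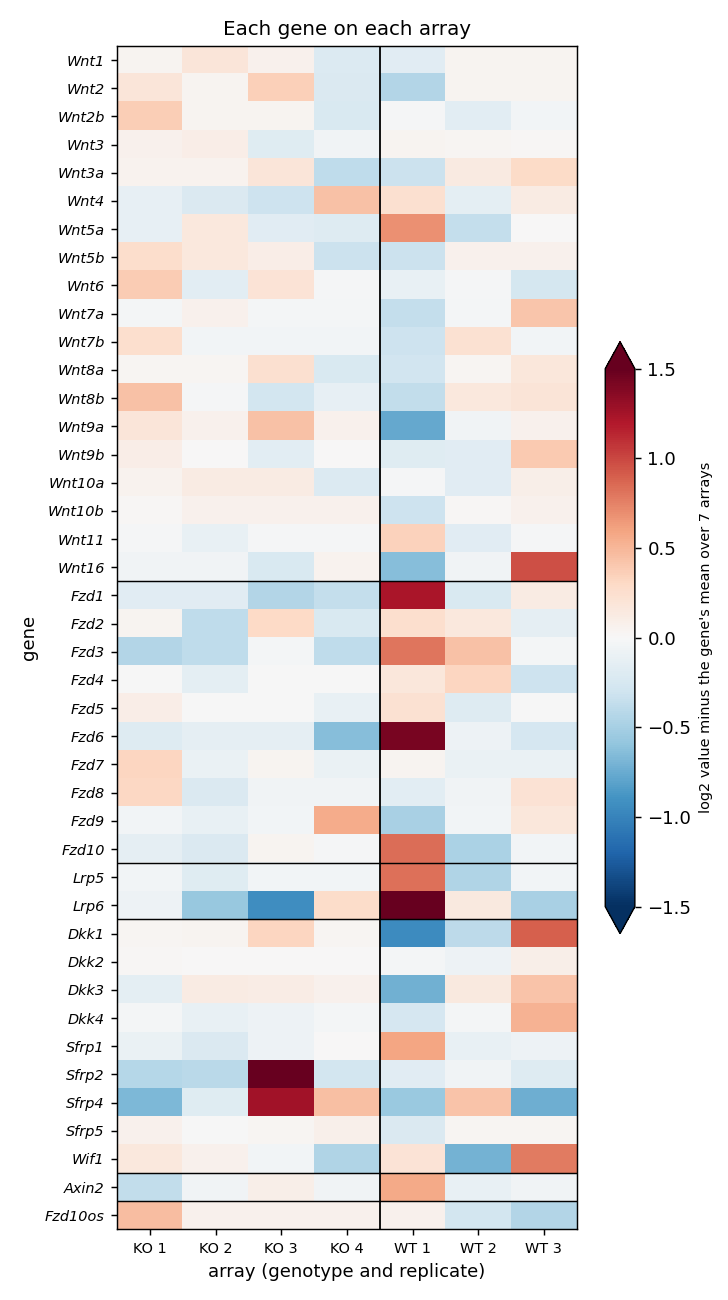
Each of the 42 genes (down the page, by role) on each array (across, KO left and WT right), coloured by its log2 value minus its mean over the 7 arrays; colours saturate at 1.5. WT replicate 1 is red for Fzd1, Fzd3, Fzd6, Fzd10, Lrp5, Lrp6 and Axin2, and KO replicate 3 is red for Sfrp2 and Sfrp4.

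Other genes of the pathway gave no adjusted call either. Among 27 secretion and extracellular regulators, 11 had a higher and 16 a lower mean in KO, with a median difference of -0.04. Of these, 1 was past an unadjusted limma p of 0.05, against 1.88% of all genes. That gene was Kremen1, a Dkk1 receptor that helps clear Lrp6, at 3.61, 3.61, 3.57 and 3.37 in KO, against 4.46, 4.20 and 3.58 in WT (difference -0.54, SE 0.22, limma adjusted p = 0.9995). WT replicate 3 lay within the knockout range and the other wild type arrays above it, and the difference without WT replicate 1 was -0.35. Porcn, the acyltransferase that lipid-modifies Wnt ligands, was at 5.06, 5.07, 5.25 and 5.25 in KO, against 6.61, 5.24 and 5.45 in WT. Its difference of -0.61 (SE 0.32) was -0.19 without WT replicate 1, the highest array. Among 13 co-receptor and planar polarity genes, 5 were higher and 8 lower, 0 passed the unadjusted threshold and the median was -0.06. With WT replicate 1 left out the first list had 13 higher and 14 lower, and the second 10 higher and 3 lower. Over all genes, 10687 were then higher and 12454 lower.

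In the beta-catenin branch, 23 destruction complex and cytoplasmic genes gave 9 higher and 14 lower means, a median of -0.09 and 0 past the unadjusted threshold. Nkd2, a Dishevelled-binding antagonist, was at 2.88, 3.44, 3.41 and 3.53 in KO, against 5.37, 3.44 and 4.04 in WT, a difference of -0.97 (SE 0.43) that was -0.43 without WT replicate 1. Of 20 measured nuclear partners, 6 were higher and 14 lower, with a median of -0.19 and 1 past the unadjusted threshold. That was Ctbp2, a corepressor, at 3.44, 3.35, 3.44 and 3.11 in KO, against 4.13, 3.70 and 3.53 in WT (difference -0.45, SE 0.18, limma adjusted p = 0.9995), and -0.28 without WT replicate 1. It was also the 1 nuclear partner whose genotypes did not overlap, against 1.91% of all genes. Lef1, the TCF/LEF factor of hair matrix, was at 4.13, 4.05, 4.12 and 3.63 in KO, against 6.14, 3.72 and 4.41 in WT (difference -0.77, SE 0.52), and at -0.08 without WT replicate 1. The 21 measured target genes split into 11 higher and 10 lower, with a median of 0.01 and 0 past the unadjusted threshold. They shared Nkd2, Lef1 and Lgr5 with the lists above. Msx2, a follicle transcription factor, differed by -1.37 (SE 0.70), and its value of 6.08 on WT replicate 1 stood over 2.44 to 3.24 elsewhere. The difference without that array was -0.39. Lgr5, a follicle stem cell receptor for R-spondins, differed by -0.35 (SE 0.24), with 4.32 on WT replicate 1 and 3.26 to 3.43 elsewhere, and by -0.05 without that array. Without WT replicate 1 the means were higher in KO for 15 of 23 cytoplasmic genes, 12 of 20 nuclear partners and 14 of 21 targets. Over all genes, 10687 of 23185 were higher in that setting.

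Hair follicle markers scored highest on WT replicate 1. So did the pathway lists above and the dermal papilla, interfollicular epidermis, fibroblast and macrophage markers, while the other marker lists were highest on other arrays. All 25 measured follicle shaft, sheath and matrix genes had a lower mean in KO, against 48.2% of all genes. Of these 25, 1 was past the unadjusted threshold, 2 had a mean below the median of all values, and the median difference was -1.26. When WT replicate 1 was left out, 18 of 25 were lower, against 53.7% of all genes, and the median difference of the 25 was -0.20. Their score per array, the mean deviation of the genes from their mean over the 7 arrays, was -1.04 to -0.23 in KO, against 3.00 on WT replicate 1, -0.07 on WT replicate 2 and -0.64 on WT replicate 3. Summed log2 levels of the list were 95.03 to 115.2 in KO, against 105.0 to 196.0 in WT. Dermal papilla markers moved less, with scores of -0.10 to -0.03 in KO and -0.0037 to 0.14 in WT, and were lower in KO in 11 of 15 genes. Interfollicular epidermis scores were -0.14 to 0.10 in KO, against 0.98, -0.06 and -0.91 in WT. Skeletal muscle markers were higher in KO in 14 of 16 genes (median 0.50, 1 past the unadjusted threshold), against 51.7% of all genes higher. Their scores were -0.01 to 0.62 in KO, against 0.01, 0.28 and -1.11 in WT. Their summed levels were 126.3 to 136.4 in KO and 108.7 to 130.9 in WT. Sebaceous gland and adipocyte markers were higher in KO in 8 of 10 and 8 of 11 genes, against 51.7% of all genes. Macrophage markers were lower in 8 of 9, against 48.2% of all genes. Without WT replicate 1, macrophage markers were lower in 5 of 9 genes, against 53.7% of all genes. Skeletal muscle, sebaceous gland and adipocyte markers were then higher in 15 of 16, 8 of 10 and 9 of 11. With all arrays, endothelial markers split into 4 higher and 6 lower and T cell markers into 5 higher and 3 lower. The unadjusted threshold was passed by 2 of 10 sebaceous gland and 1 of 8 T cell markers, higher in KO. In 15 dermal papilla markers it was passed by 1, lower in KO. Genotypes did not overlap in 1, 2 and 1 genes of these lists. Over all genes the shares were 1.88% and 1.91%. No marker passed the adjusted threshold. The part of any of these cell contents in the Wnt gene values was not tested.

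**Figure D5:**
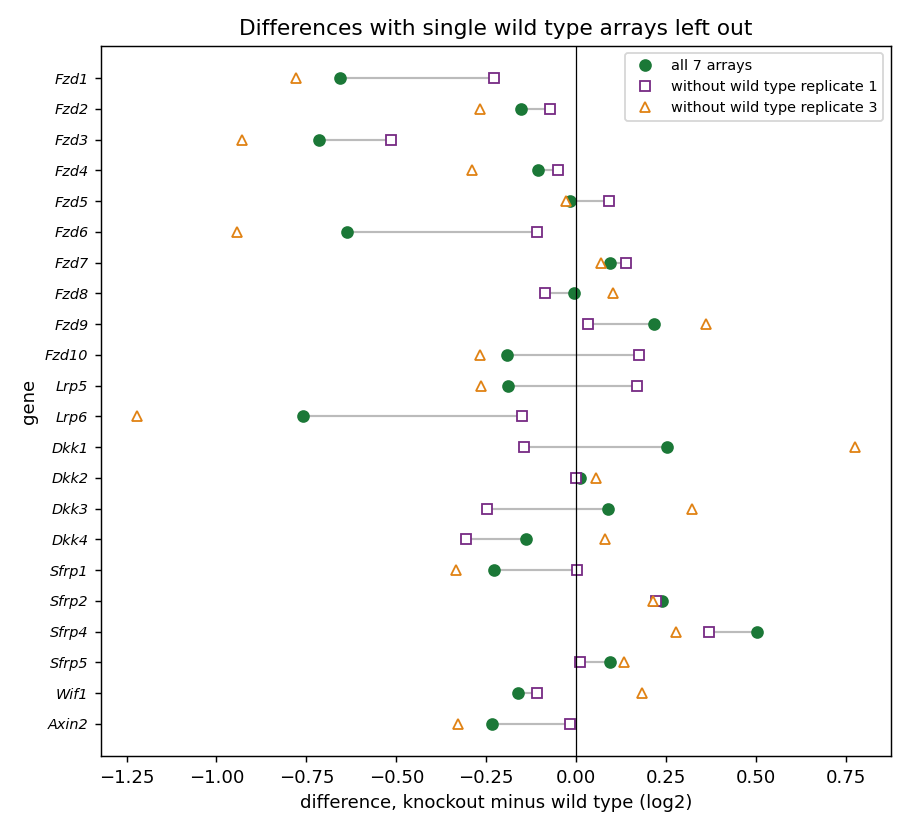
Difference (x axis, KO minus WT, log2) of receptors, co-receptors, secreted inhibitors and Axin2 with all 7 arrays (filled circles), without WT replicate 1 (open squares) and without WT replicate 3 (open triangles). Without WT replicate 1, Fzd6 and Lrp6 lie at -0.11 and -0.15 and Fzd3 at -0.52.

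Spread between arrays was larger in wild type than in knockout for these genes, as for all genes. The median SD of a member was 0.17 in KO and 0.31 in WT, beside 0.19 and 0.39 over all genes. When WT replicate 1 was left out, 13 of 42 members changed the sign of their difference, and 7 did without WT replicate 3. Exact repeats also limit what small differences mean. In 28 of 42 members at least 2 of the 7 arrays carried exactly the same value, and 22.4% of the 294 member values were numbers found 10 or more times in the whole table, against 14.9% of all 176442 values. The value of Fzd3 on WT replicate 2 was 1 of these, occurring 501 times.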

How the data were processed

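Expression in lesional skin was measured on 7 Affymetrix arrays, 4 KO and 3 WT. The authors deposited 1 table of log2 values, made with RMA per the submitters' processing notes, whose version, probe-set definition and build are not given in the sources used here. Scanner files were not used here. Precision was limited by the number of arrays, by the unlike WT replicates 1 and 3, and by the exact repeats of values. Probe sets were named from the platform annotation, giving 23185 genes. A linear model of genotype was fitted to all genes with limma 3.58.1 (R 4.3.3), with no filter and no covariate, and p-values were adjusted by Benjamini-Hochberg over all genes. The fit was tested on simulated data with equal scatter on every array. That simulation did not include the unlike spread of these arrays or their repeated values, so it does not show how the fit handles them. Tables and figures were made with Python 3.11.15, pandas 2.3.3 and matplotlib 3.10.9.

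The members, the pathway lists and the marker lists were chosen with earlier results of these data known. Values on every array are given for Axin2, Lrp5, Lrp6, members with an unadjusted p under 0.05 or genotypes that did not overlap, and the 5 members of each role with the largest difference. From the other pathway lists up to 4 genes with the smallest p were eligible. Fzd4 and Fzd10os were added after their values were seen. Alternatives were another normalization, filters on dim genes, array weights, blocks for code or replicate number, and leaving arrays out. Counts of directions without WT replicate 1 were chosen after seeing the data. Codes in the sample descriptions, with or without a suffix, were treated as possible batches, and their meaning is not known here. Same-numbered KO and WT arrays did not deviate together (r of -0.09, -0.15 and 0.03), against -0.36 to 0.27 for differently numbered arrays. With so few arrays this cannot decide whether the numbers pair samples, and the labels state no pairing. Promoter sequences are from RefSeq (GRCm38.p6).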

Additional observations from a re-analysis of the deposited data

Results flagged for a closer look

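In 13 of the 42 genes 1 of the 4 KO arrays stood apart from the other KO arrays by Dixon's test at 95%, which is 31.0% of them, against 20.6% of all genes whose KO values varied. The nominal chance rate of this test is about 1 in 20 groups, and exact ties between arrays raise it in this table. The WT group of 3 was too small for this test. KO replicate 3 was the high array for Sfrp2 at 5.51, Dkk1 at 4.11 and Fzd3 at 3.33. On KO replicate 4, Fzd9 was high at 4.87 and Fzd6 low at 3.64. On KO replicate 1, Wnt7b was high at 3.55, Fzd10os at 4.53 and Dkk2 at 4.30, while Wnt10b was low at 2.77. On KO replicate 2, Wnt7a was high at 2.78, and Wnt11 at 2.76, Fzd4 at 5.25 and Lrp5 at 4.16 were low. In Wnt7a, Wnt7b, Wnt10b, Wnt11, Fzd4, Lrp5, Dkk2 and Fzd10os the other 3 KO arrays carried exactly the same value, so any departure from it passes the test, as in 43.8% of the genes that passed over the whole table.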

How the results depend on the processing

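Over 20 alternative settings, 486 of 531 differences of the 27 named genes kept their direction and stayed short of the adjusted threshold, 35 changed sign and 4 were 0 (Fzd3, Lrp5, Sfrp1 and Msx2 with the code number as a block). The adjusted threshold was passed by 9 named genes, all with array weights, 3 of them with the opposite sign (Lrp5, Fzd10 and Wif1). With array weights, which gave WT replicate 2 a weight of 75.4 against 0.11 to 1.19 for the others and did not converge, 7 of 42 members passed an adjusted p of 0.05 (17.4% of all genes), 14 an unadjusted p of 0.05 (31.8%) and 1 was lower by 1.5-fold (3.99%). In the other settings no member passed, and the smallest adjusted p was 0.363. The count at an unadjusted p under 0.05 (1) was 2 after quantile normalization of the deposited values (3.09% of all genes). It was 0 without the dimmest 50% of genes (1.89%), 3 with the code number as a block (9.58%) and 0 within codes without a suffix (1.27%). Without both WT replicates 1 and 3 it was 5 (8.73%), with array SD as a covariate 2 (7.61%), and without single arrays 1 to 4 (1.07% to 12%). Genotypes that did not overlap (0) numbered 2 after quantile normalization (5.03% of all genes), 1 after centring (4.12%), 7 within codes without a suffix (16.2%), 15 without both WT arrays (37.5%), and 0 to 7 without single arrays (3.09% to 21.4%). The count lower by 1.5-fold (4) was 2 after quantile normalization (2.05% of all genes), 1 without both WT arrays (3.89%), 1 with array SD as a covariate (2.02%), and 0 to 4 without single arrays (2.70% to 10.2%). The members' median difference was -0.061 to 0.095 without single arrays. With array weights the sign changed for Axin2 (0.018), Lrp5 (0.36), Wnt5a (0.28), Fzd10 (0.39), Sfrp4 (-0.20), Sfrp1 (0.011), Wif1 (0.65) and Lef1 (0.27). Without both WT arrays it changed for Axin2 (0.011), Lrp5 (0.37), Wnt5a (0.27), Fzd10 (0.39), Sfrp4 (-0.21), Sfrp1 (0.019), Wif1 (0.63) and Lef1 (0.26). With the code number as a block, where 1 pair of arrays sets the estimate, it changed for Axin2 (0.14), Fzd6 (0.12), Fzd9 (-0.21), Fzd10 (0.081), Dkk1 (-0.58), Fzd4 (0.30) and Lgr5 (0.019). Leaving out single arrays gave both signs, from -0.47 to 0.17 for Lrp5, -0.43 to 0.095 for Wnt5a, -0.53 to 0.28 for Wnt16, -0.48 to 0.17 for Fzd10, -0.15 to 0.77 for Dkk1, -0.24 to 0.42 for Sfrp2, -0.35 to 0.0018 for Sfrp1, -0.56 to 0.18 for Wif1 and -0.29 to 0.026 for Fzd4. The sign turned without WT replicate 1 for Lrp5, Wnt5a, Fzd10, Dkk1 and Sfrp1, without WT replicate 3 for Wnt16 and Wif1, without WT replicate 2 for Fzd4, and without KO replicate 3 for Sfrp2. Sfrp2 (-0.18) and Fzd4 (0.061) changed within codes without a suffix, and Fzd4 (0.0032) after quantile normalization. The cause was not tested. With the replicate number as a block, although no pairing by these numbers is known, Fzd3 differed by -0.69 and Lrp6 by -0.96. The 1 member with an unadjusted p under 0.05 was then Lrp6 in place of Fzd3.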
